A study of Arabidopsis thaliana with 72 samples.

Results

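Seedlings of Arabidopsis thaliana accession Col-0 treated with zeatin were compared with mock-treated Col-0 seedlings of the same times, on 12 of the 72 Affymetrix ATH1 arrays of a survey of plant hormone responses. The zeatin seedlings received 1 µM zeatin, a natural cytokinin, and were taken at 30 min, 1 h and 3 h, and the mock seedlings were treated for the same times without hormone. Each treatment and time had 2 arrays, which gave 6 zeatin and 6 mock arrays. All seedlings were wild type for the comparison, 7 days old and grown at 22 °C, and RNA came from whole seedlings, so roots and shoots were measured together. The membership of each array was taken from its label alone. Another 36 Col-0 arrays of the series carried 6 other hormones, namely IAA (an auxin) and GA3 (a gibberellin) at 1 µM, abscisic acid (ABA), methyl jasmonate (MJ) and the ethylene precursor ACC at 10 µM, and brassinolide (BL, a brassinosteroid) at 10 nM. These arrays helped to estimate the spread and served as a second comparison group. Whether both arrays of a group stem from independently grown seedlings is not given in the labels, so the p-values describe array-to-array spread, part or all of which may be technical.

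Cytokinins are adenine derivatives that promote cell division and shoot growth and restrain root growth. They bind histidine kinase receptors in the membrane, and a phosphate then passes through shuttle proteins to type-B response regulators, which are transcription factors in the nucleus. Type-A response regulators are early targets of those factors and dampen the same pathway, and enzymes that conjugate or oxidise cytokinin limit its level.

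Values below are MAS5 signal intensities after the arrays were scaled to a common trimmed mean. A log2 change is zeatin minus mock of log2(signal + 54.6), where 54.6 is 10% of the median deposited signal. On this scale the change of a dim probe set is understated. Of the 22810 probe sets, 15153 passed a filter on dim values and were tested, and 8248 of these name a single gene in the annotation used here. A probe set was called where limma's moderated test (two-sided) gave an adjusted p under 0.05 after Benjamini-Hochberg adjustment over all 15153.

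Over the time course, zeatin seedlings had higher signal than mock seedlings for 279 probe sets (1.84% of those tested) and lower signal for 285 (1.88%), together 564 (3.72%). The rises were larger than the falls. The median called rise was 1.42-fold, and 40 of the 279 rose at least 2-fold. The median called fall was 1.37-fold, and 6 of the 285 fell at least 2-fold. Each zeatin array has a mock array of the same time and replicate number, which gives 6 pairs. Zeatin lay above mock in all 6 pairs for 183 of the 279 called rises, and below mock in all 6 for 198 of the 285 called falls. Among all probe sets tested, 3.65% lay above in all 6 pairs and 4.04% below. The calls rest on the mean of these same differences, so a higher share among called probe sets follows from their choice and is no separate support. Of the called probe sets, 276 name a single gene. In whole seedlings, a change in the number of cells of a type and a change of RNA per cell cannot be told apart.

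Among single times the count of calls was highest at 3 h, although 1 array could turn that order. At 30 min, 39 probe sets were higher in zeatin seedlings (0.257% of those tested) and 15 lower (0.099%), together 0.356%. At 1 h, 105 were higher (0.693%) and 88 lower (0.581%), together 1.27%. At 3 h, 283 were higher (1.87%) and 229 lower (1.51%), together 3.38%. Each single time rests on 2 arrays against 2. Leaving out 1 of its own arrays gave 19 to 29 calls at 30 min, 53 to 83 at 1 h and 163 to 587 at 3 h. Without the second zeatin array of 3 h, the 163 calls at 3 h were fewer than the 193 at 1 h.

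**Figure D1:**
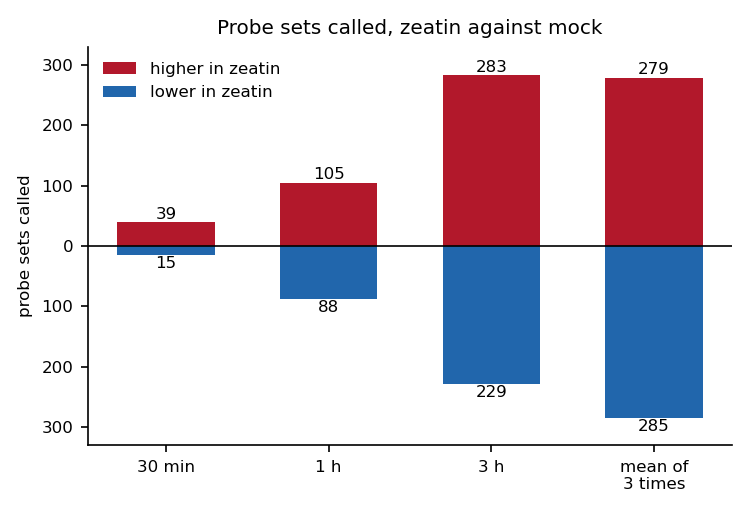
Number of probe sets called higher (red, upward) and lower (blue, downward) in zeatin than in mock seedlings at 30 min, 1 h and 3 h and for the mean of the 3 times, of 15153 tested at adjusted p under 0.05. Calls were fewest at 30 min (39 higher and 15 lower) and most numerous among single times at 3 h (283 higher and 229 lower).

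Both type-A response regulators named by a tested probe set rose strongly. The list held 10 type-A genes, and the other 8 were not analysed here because no probe set is named for them in the annotation used here. They may be among the unnamed probe sets. ARR15 had signals of 3181 and 2721 in zeatin seedlings at 30 min, against 272 and 212 in mock seedlings. At 1 h ARR15 had 1747 and 3416 in zeatin seedlings, against 348 and 361 in mock seedlings. At 3 h it had 1056 and 1543 in zeatin seedlings, against 359 and 507 in mock seedlings. Every zeatin array was above every mock array of its time, and the distance between the treatments was widest at 30 min. The log2 change of ARR15 was 3.35 at 30 min, 2.61 at 1 h and 1.47 at 3 h (SE 0.45 each). The changes at 30 min and 1 h passed the test (limma adjusted p = 5.4e-05 and 0.001), and that at 3 h did not (adjusted p = 0.071). Without the second zeatin array of 1 h, the 1 h change was 2.04 and its adjusted p was 0.11. The mean over the times was 2.48 (SE 0.26, adjusted p = 8.7e-08), a 5.56-fold rise, higher in 6 of 6 pairs. The 3 changes of ARR15 did not pass the test of a difference between times (adjusted p = 0.45).

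ARR16, the second type-A regulator named by a tested probe set, had signals of 3220 and 2218 in zeatin seedlings at 30 min, against 704 and 398 in mock seedlings. It had 2994 and 3385 in zeatin seedlings at 1 h, against 864 and 555 in mock seedlings, and 1708 and 1996 in zeatin seedlings at 3 h, against 662 and 404 in mock seedlings. The groups did not overlap at any time. Its log2 change was 2.22, 2.11 and 1.73 at the 3 times (SE 0.25 each), and each passed the test (limma adjusted p = 1.8e-06, 3.8e-06 and 5.5e-05). Over the time course ARR16 rose 4.06-fold (log2 change 2.02, SE 0.14, adjusted p = 3.4e-11, 6 of 6 pairs). Among all probe sets tested, both zeatin arrays were above both mock arrays for 13.7% at 30 min, 19.5% at 1 h and 16.5% at 3 h, and both were below for 12.9%, 17.2% and 19.2%, so the absence of overlap alone is common with 2 arrays a group.

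**Figure D2:**
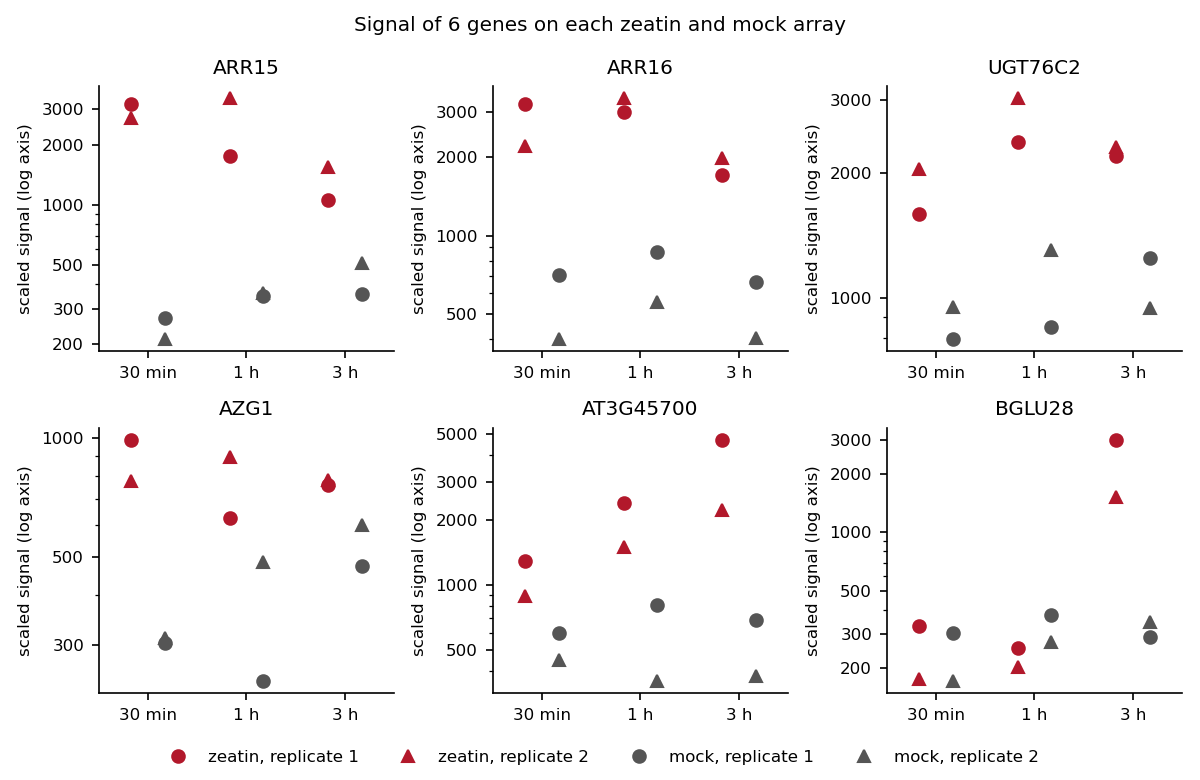
Scaled signal (log axis) of 6 genes on each zeatin (red) and mock (grey) array at 30 min, 1 h and 3 h, with replicate 1 as circles and replicate 2 as triangles. ARR15 and AZG1 stood furthest from mock at 30 min, AT3G45700 was furthest above mock at 3 h, and BGLU28 was above mock on both arrays at 3 h, with 2990 and 1527 in zeatin and 291 and 346 in mock seedlings.

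Of the genes that conjugate cytokinin, UGT76C2 rose and UGT76C1 did not pass the test. Both encode UDP-glucosyltransferases that attach glucose to the ring nitrogens of cytokinins, which inactivates them, and they lie beside each other on chromosome 5. UGT76C2 had 1598 and 2052 in zeatin seedlings at 30 min, against 795 and 954 in mock seedlings. It had 2384 and 3039 in zeatin seedlings at 1 h, against 854 and 1308 in mock seedlings, and 2203 and 2309 in zeatin seedlings at 3 h, against 1247 and 944 in mock seedlings. The groups were separate at each time and the rise was of similar size throughout. The fold change was 2.02, 2.47 and 2.03 at the 3 times, with limma adjusted p of 0.0026, 3.4e-05 and 0.0007. The call at 30 min ended when any of 3 of its 4 arrays was left out, with adjusted p up to 0.10, and that at 3 h without the second mock array of 3 h (adjusted p = 0.053). Over the time course UGT76C2 rose 2.16-fold (log2 change 1.11, SE 0.10, adjusted p = 7.3e-09, 6 of 6 pairs). UGT76C1 had 277 to 680 in zeatin seedlings over the 6 arrays, against 299 to 701 in mock seedlings, with overlap at every time. Its log2 change was -0.06 (95% interval -0.34 to 0.23, limma adjusted p = 0.92).

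AZG1, a purine transporter that also carries cytokinin, was the only listed transport gene named by a tested probe set. It had 986 and 779 in zeatin seedlings at 30 min, against 303 and 311 in mock seedlings. At 1 h it had 626 and 893 in zeatin seedlings, against 242 and 485 in mock seedlings, and at 3 h 760 and 781 in zeatin seedlings, against 475 and 600 in mock seedlings. Zeatin was above mock at each time. The change over the time course was 1.93-fold (log2 change 0.95, SE 0.17, limma adjusted p = 0.00067, 6 of 6 pairs). Of the single times, that at 30 min passed the test (2.57-fold, adjusted p = 0.028) and those at 1 h and 3 h did not (2.01-fold with adjusted p = 0.11, and 1.40-fold with adjusted p = 0.48). The 30 min call ended when any of its 4 arrays was left out, with adjusted p of 0.095 to 0.60. The difference between the times did not pass for AZG1 (adjusted p = 0.75). No tested probe set names a type-B response regulator, cytokinin receptor, shuttle protein, cytokinin response factor or gene of cytokinin synthesis. ARR18 and ARR19, both type-B, were below the filter, and most of the others have no probe set under their name in the annotation used here. Such genes may be among the 6905 tested probe sets that do not name a single gene.

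Several of the largest rises belonged to loci with an identifier only in the annotation used here, for which no role is given. AT2G25150 had 597 and 340 in zeatin seedlings at 30 min, 1249 and 765 at 1 h and 3416 and 1928 at 3 h, against 210 and 133, 213 and 203, and 260 and 231 in mock seedlings at those times. The mock signals were 133 to 260 throughout, and zeatin was above mock at each time, with the widest distance at 3 h. The difference between the times did not pass the test (limma adjusted p = 0.31). The rise over the time course was 4.28-fold (SE 0.23 on the log2 scale, limma adjusted p = 1.7e-07, 6 of 6 pairs), and that at 3 h was 8.75-fold (adjusted p = 5.7e-06). A rise in 6 of 6 pairs was a condition for choosing the largest rises. AT2G34610 rose 3.75-fold over the time course (log2 change 1.91, adjusted p = 0.00037). At 3 h it had 635 and 415 in zeatin seedlings, against 29.6 and 29.0 in mock seedlings, where the mock signals are below the constant added before taking logs.

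AT3G45700, AT3G45680 and AT3G45710 are near neighbours on chromosome 3, and all of them rose. AT3G45700 had 1292 and 887 in zeatin seedlings at 30 min, 2391 and 1503 at 1 h and 4680 and 2228 at 3 h, against 601 and 451, 806 and 358, and 687 and 377 in mock seedlings. Its rise over the time course was 3.34-fold (log2 change 1.74, SE 0.14, limma adjusted p = 2.5e-10), with 5.81-fold at 3 h, and the difference between the times did not pass (adjusted p = 0.089). AT3G45680 rose 2.44-fold (log2 change 1.29, adjusted p = 9.1e-06) and AT3G45710 rose 1.95-fold (log2 change 0.96, adjusted p = 1.1e-05). All 3 were higher in 6 of 6 pairs, which the choice of the largest rises required of AT3G45700 and AT3G45680.

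AT4G11190 and AT5G47980 were among the brightest of the large rises, and each has a risen neighbour. AT4G11190 had 3759 and 2678 in zeatin seedlings at 30 min, 6682 and 6424 at 1 h and 17645 and 10194 at 3 h, against 2766 and 1978, 2919 and 1972, and 3889 and 2055 in mock seedlings. The groups overlapped at 30 min and were far apart at 3 h. The rise was 2.57-fold over the time course (log2 change 1.36, SE 0.13, limma adjusted p = 1.3e-08), and the adjacent AT4G11210 rose 1.46-fold (adjusted p = 0.0034, or 0.59 without the replicate number in the fit). AT5G47980 had 10253 and 5047 in zeatin seedlings at 3 h, against 2186 and 1676 in mock seedlings. It rose 2.56-fold over the time course (log2 change 1.36, SE 0.11, adjusted p = 4.9e-10), and AT5G47950, 3 genes away, rose 1.58-fold (adjusted p = 0.015). The call of AT5G47950 ended without the second mock array of 30 min or of 1 h (adjusted p up to 0.080) and without the replicate number in the fit (0.50).

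Neighbouring rises were more frequent among the risen genes than among all genes. Of 123 risen genes that have another tested gene within 5 places on the chromosome, 17 (13.8%) had another risen gene there, against 5.00% of all tested genes. Among 141 fallen genes the share with another fallen gene was 7.09%, against 5.71% of all tested genes. These shares are descriptions with no test, and whether probe sets of neighbouring genes share signal was not tested.

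The other large rises were AT3G15720, AT3G50300, AT4G03610, AT1G72140, AT1G58170, AT1G64590 and CML23, which encodes a calmodulin-like calcium sensor. Their log2 changes over the time course were 0.98 to 1.38, and each was higher in 6 of 6 pairs, as their choice required. AT3G15720 was the least firm of them (log2 change 1.38, limma adjusted p = 0.0075), and leaving out the second mock array of 1 h raised its adjusted p to 0.069. CML23 rose 2.06-fold (adjusted p = 0.0019), with signals of 260 to 406 in zeatin seedlings, against 28.7 to 198 in mock seedlings. AT1G21830 was called early, with 1354 and 2399 in zeatin seedlings at 30 min, against 680 and 1036 in mock seedlings (2.08-fold, adjusted p = 0.0077). That call ended without the first mock array (adjusted p = 0.45) or the second zeatin array (0.56). The gene has 2 tested probe sets, and these values are of 1 of them.

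The largest falls were smaller than the largest rises. AT3G13760 fell by 1.53 on the log2 scale over the time course (SE 0.25, limma adjusted p = 0.00016). It was lower in 6 of 6 pairs, as the choice of the largest falls required. It had 29.5 and 61.4 in zeatin seedlings at 1 h, against 396 and 274 in mock seedlings. The mock arrays of 3 h differed widely from each other (597 and 95.7). AT5G01740 fell by 1.02 (SE 0.10, adjusted p = 4.3e-08) and was called at each of the 3 times. It had 357 and 437 in zeatin seedlings at 30 min, 385 and 484 at 1 h and 390 and 254 at 3 h, against 734 and 835, 765 and 953, and 848 and 821 in mock seedlings. Zeatin seedlings therefore held about the same level at 30 min as at 1 h, and no zeatin array reached a mock array. The calls of AT5G01740 at 30 min and at 1 h ended when any one of their own 4 arrays was left out, with adjusted p up to 0.26 and 0.084.

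UGT76B1, which glucosylates isoleucic acid and salicylic acid, fell by 0.91 on the log2 scale (SE 0.17, limma adjusted p = 0.00092). It had 320 to 509 over the 6 zeatin arrays, against 668 to 1009 over the 6 mock arrays, so the treatments did not overlap. Without the replicate number in the fit its adjusted p was 0.0505, just past the threshold. AT5G61590, listed as DEWAX, a repressor of wax synthesis, fell by 0.73 (SE 0.11, adjusted p = 8.9e-05). It had 1575 to 1914 in zeatin seedlings, against 2376 to 3978 in mock seedlings, again with no overlap, and it was called at 30 min (adjusted p = 0.023). That 30 min call ended when any of its 4 arrays was left out, with adjusted p of 0.067 to 0.68. AT1G23390 fell by 0.89 (adjusted p = 4.9e-06) and was lower in 6 of 6 pairs, as the choice of the largest falls required. Its levels followed the replicate number, with 787 and 1455 in zeatin seedlings at 30 min, against 1404 and 3876 in mock seedlings. The treatments overlapped there unless compared within pairs, and without the replicate number in the fit its adjusted p was 0.37. AT2G44500 was lowest early, with 750 and 805 in zeatin seedlings at 30 min, against 1717 and 1397 in mock seedlings (fell by 0.95, adjusted p = 8.4e-05). The difference between the times was not called for AT2G44500.

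The remaining falls of the largest 12 were AT2G39980, AT5G66985, AT5G15180, AT1G15640, AT4G33420, AT1G49470, AT5G37540 and AT4G34600, with log2 changes of -0.99 to -0.77. AT4G33420 had 783 and 572 in zeatin seedlings at 3 h, against 1891 and 1584 in mock seedlings. AT1G49470 had 532 and 572 in zeatin seedlings at 3 h, against 1582 and 1375 in mock seedlings. Both were nearer to mock at 30 min, where AT4G33420 had 1164 and 1480 in zeatin seedlings, against 1748 and 1501 in mock seedlings. The difference between the times was called for AT4G33420 and not for AT1G49470. AT1G15640 was the least firm of the 12 (limma adjusted p = 0.032), and its call ended when any of 9 arrays was left out, with adjusted p up to 0.18. AT5G66985 (adjusted p = 0.0096) lost its call without the first zeatin array of 30 min (adjusted p = 0.082) and without the replicate number in the fit (0.058).

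**Figure D3:**
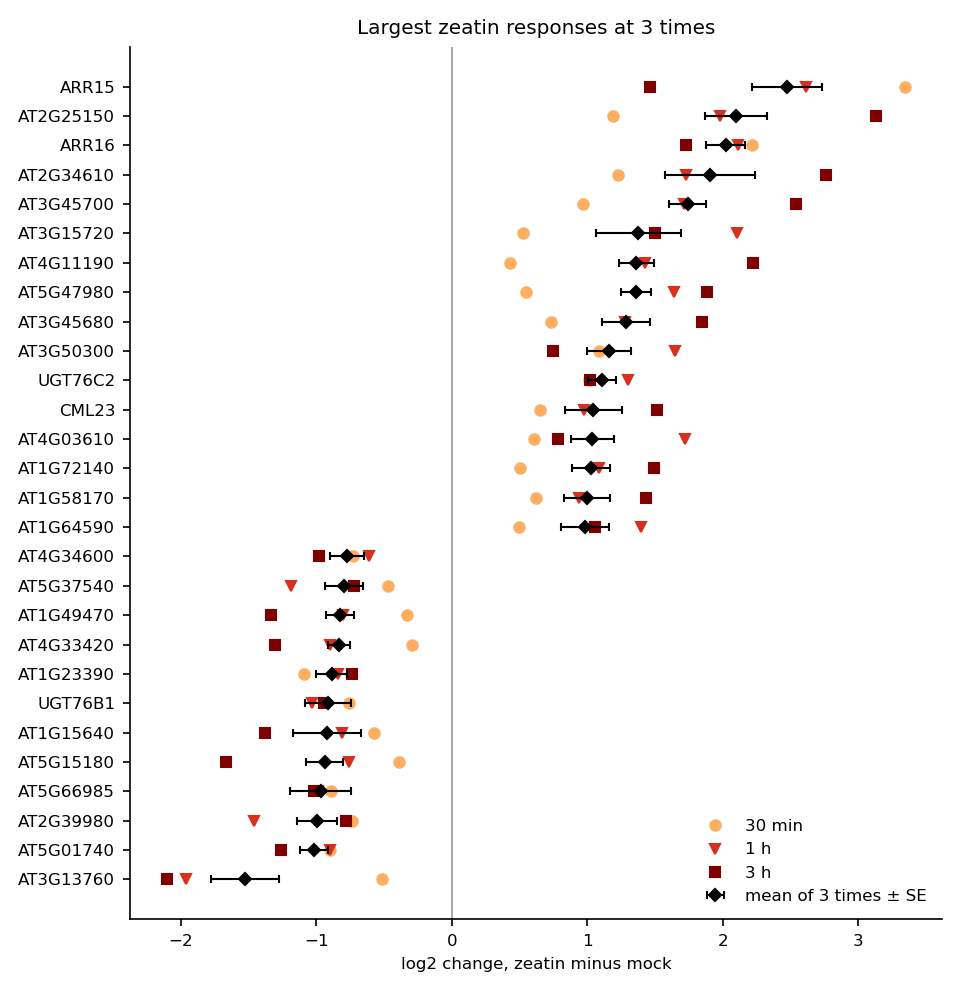
Log2 change, zeatin minus mock, of 16 rises and 12 falls, the largest of the called named genes whose 6 pairs all went the same way. Coloured points are the changes at 30 min, 1 h and 3 h, and black diamonds are the mean of the 3 times with its SE. ARR15 was most changed at 30 min (3.35) and least at 3 h (1.47), while AT2G25150 and AT3G45700 were most changed at 3 h (3.13 and 2.54).

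Family counts cover only members whose symbol or synonym in the annotation used here carries the family name, so loci listed by identifier alone, many of the largest rises and falls among them, are not counted and may belong to these families. Families were described by how many tested members were called over the time course, beside the 1.84% of all probe sets called higher and 1.88% called lower. The median log2 change over all probe sets was -0.0014. Of 18 tested expansins and XTH enzymes, which loosen or remodel the cell wall, 3 rose and none fell, with a median log2 change of 0.13. XTH32 rose 1.39-fold (log2 change 0.48, SE 0.06, limma adjusted p = 9.1e-06, 6 of 6 pairs), with 3160 to 5356 over the zeatin arrays and 2558 to 3958 over the mock arrays. XTH20 (log2 change 0.45, adjusted p = 0.024) and XTH33 (0.43, adjusted p = 0.026) were also called. XTH20 lost the call on leaving out any of 7 arrays and XTH33 on leaving out any of 8, with adjusted p up to 0.17 and 0.12. XTH26 was lower at 1 h (-1.66, adjusted p = 0.048) and had a log2 change of 0.22 at 3 h (adjusted p = 0.88). The 1 h call of XTH26 ended on leaving out any of 8 arrays, with adjusted p up to 0.71. EXLA3 had a log2 change of 0.70 over the time course (adjusted p = 0.070).

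Of 31 UDP-glycosyltransferases, 1 rose (UGT76C2) and 3 fell, with a median log2 change of -0.06. The falls were UGT76B1, GT72B1 (-0.40, limma adjusted p = 0.019) and UGT72E1 (-0.36, adjusted p = 0.043), and the last 2 act on phenolic compounds including lignin precursors. Leaving out 1 array ended the call of GT72B1 for 6 of the 12 arrays and that of UGT72E1 for 9, with adjusted p up to 0.11 and 0.21. Of 9 glutathione S-transferases, which attach glutathione to reactive compounds, GSTU26 rose and GSTU27 fell. GSTU26 had 2300 and 2274 in zeatin seedlings at 30 min, 3389 and 3528 at 1 h and 6371 and 5637 at 3 h, against 1668 and 1755, 2074 and 2083, and 2464 and 1879 in mock seedlings. Replicate arrays of GSTU26 were close at each time, and its rise over the time course was 1.82-fold (log2 change 0.86, SE 0.08, adjusted p = 1.3e-08). GSTU27 fell by 0.40 (SE 0.08, adjusted p = 0.0019), with 1994 to 2778 in zeatin seedlings, against 2911 to 3374 in mock seedlings.

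Of 13 cytochrome P450 genes, 1 rose and 1 fell. CYP84A4 had 744 and 693 in zeatin seedlings at 3 h, against 265 and 274 in mock seedlings, and rose 1.69-fold over the time course (limma adjusted p = 0.001). CYP71B26 fell by 0.33 (adjusted p = 0.028), and leaving out any of 9 arrays ended that call (adjusted p up to 0.13). Of 10 beta-glucosidases, 1 rose. BGLU28, which is linked to glucosinolate breakdown under sulfur shortage, had 2990 and 1527 in zeatin seedlings at 3 h, against 291 and 346 in mock seedlings. At 30 min and 1 h it had 176 to 329 in zeatin seedlings, against 171 to 375 in mock seedlings. Its change was 5.90-fold at 3 h (adjusted p = 2.4e-05) and 1.67-fold over the time course (adjusted p = 0.034), higher in 4 of 6 pairs. The call over the time course ended on leaving out any of 8 arrays, with adjusted p up to 0.17. In the glucosinolate list, 3 genes were tested, and BCAT4, which starts the side-chain elongation of methionine, fell by 0.31 (adjusted p = 0.038). BCAT4 was lower at 3 h (-0.87, adjusted p = 0.00058), with log2 changes of -0.06 and 0.01 at 30 min and 1 h, and the 3 h call ended without the second zeatin array of 3 h (adjusted p = 0.11). The BCAT4 call over the time course ended on leaving out any of 11 of the 12 arrays, with adjusted p up to 0.24. UGT74B1, which glucosylates the glucosinolate core, had a log2 change of -0.20 (adjusted p = 0.46).

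Of 10 NPF and NRT transporters so named, 1 rose. AT3G45700, AT3G45680, AT3G45710 and AT1G72140, described above, are listed by identifier alone. They are outside this count and may belong to the family. AT3G21670, listed as NPF6.4 of the NRT1/PTR family, had a log2 change of 0.37 (limma adjusted p = 0.024), and leaving out any of 7 arrays ended its call (adjusted p up to 0.16). At 1 h it was higher by 0.77 (adjusted p = 0.012), and so was GTR2, a glucosinolate transporter (0.60, adjusted p = 0.040). These 1 h calls ended on leaving out any of 3 arrays for AT3G21670 and any of 4 for GTR2, with adjusted p up to 0.27 and 0.37. Of 5 early auxin genes, GH3.17, which conjugates auxin to glutamate, rose (0.42, adjusted p = 0.040), and leaving out any of 10 arrays ended the call (adjusted p up to 0.23). GH3.3 and WES1, which also conjugate auxin, had log2 changes of 0.13 (adjusted p = 0.75) and -0.19 (adjusted p = 0.59). Of 4 class III peroxidases so named, Prx37 fell by 0.30 (adjusted p = 0.045), and leaving out any of 9 arrays ended that call (adjusted p up to 0.18). The adjacent AT4G08780 is not among these 4. It fell by 0.46 (adjusted p = 0.043), and leaving out any of 9 arrays ended that call too (adjusted p up to 0.19). AT4G33420 and AT5G15180, described above as falls, are also outside these 4 and, like AT4G08780, may belong to the family.

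No member was called over the time course among 6 WRKY factors, 5 bHLH factors, 4 glutaredoxins, 3 ethylene genes, 2 Aux/IAA genes, 2 light-harvesting and chlorophyll genes or 2 wounding and stress genes. The same held for the 69 probe sets of the plastid genome, whose log2 changes ran from -0.18 to 0.24. Of all probe sets tested, 3.72% were called, so the absence of a call among 2 to 6 members is common. At 3 h, 1 of the 4 glutaredoxins, GRXC2, was called lower. That call ended on leaving out any of 7 arrays (limma adjusted p up to 0.33). ROXY2, a glutaredoxin of flower development, had a log2 change of 1.04 with adjusted p = 0.081 by limma, and its values were 1.63, 2.12 and -0.62 at the 3 times. IAA34 had 0.58 (adjusted p = 0.12), EIN3, a transcription factor of ethylene signalling, -0.02 (adjusted p = 0.94), and ZAT10, a stress-induced zinc finger, -0.37 (adjusted p = 0.38).

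Markers of both organs were measured in both treatments. Of the root list, PYK10, EXPA7 and EXPA18 were tested, and none was called. Their summed signal was 28253 to 37359 on the zeatin arrays, against 28282 to 41235 on the mock arrays, and nearly all of it was PYK10. Of the shoot list, PRK, a Calvin cycle enzyme, was tested. PRK had 18656 to 25687 in zeatin seedlings, against 23416 to 29432 in mock seedlings, with a log2 change of -0.19 (limma adjusted p = 0.053) and lower signal in 6 of 6 pairs. The part of this difference in the other results was not tested.

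The probe sets called at one time mostly changed the same way at the others, except that rises called at 3 h were near the background share at 30 min. Among all probe sets tested, 51.9% were higher in zeatin at 1 h and 46.7% at 3 h, and 48.1% were lower at 1 h and 53.3% at 3 h. Of the 39 called higher at 30 min, 35 (89.7%) were also higher at 1 h and 22 of them were called there. At 3 h, 33 of the 39 (84.6%) were higher and 17 were called. Of the 15 called lower at 30 min, 13 (86.7%) were lower at 1 h and 13 at 3 h, with 6 called at each. Of the 283 called higher at 3 h, 235 (83.0%) were higher at 1 h, but 152 were higher at 30 min. That last share is 53.7%, against 50.6% of all probe sets tested. Of the 229 called lower at 3 h, 191 (83.4%) were lower at 1 h and 160 at 30 min. The share at 30 min was 69.9%, against 49.4% of all probe sets tested. At no pair of times was a probe set called in opposite directions. Each time has its own zeatin and mock arrays.

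Of the 15153 probe sets tested, 16 were called higher at all 3 times and 5 were called lower at all 3. The named ones among the rises were ARR16, UGT76C2 and AT1G11670, and among the falls AT5G01740, AT1G23390 and AT1G63840. AT1G11670 had log2 changes of 0.70, 1.12 and 0.44 at 30 min, 1 h and 3 h (limma adjusted p = 0.0029, 1.6e-06 and 0.045). AT1G63840 had -0.74, -0.76 and -0.81 (adjusted p = 0.029, 0.012 and 0.0038). Without the replicate number in the fit, none of these 3 calls of AT1G63840 held (adjusted p of 0.22 or more). AT1G11670 then lost only its 3 h call (0.11). Leaving out 1 array ended the calls of AT1G11670 at 30 min for 2 of the 12 arrays (adjusted p up to 0.24) and at 3 h for 4 (up to 0.42), and none at 1 h. It ended those of AT1G63840 at 30 min for 4 arrays (up to 0.42), at 1 h for 3 (up to 0.26) and at 3 h for 1, the first mock array of 3 h (0.078). ARR15 was not among them because its change at 3 h did not pass. The calls of AT1G23390 at single times ended on leaving out either replicate 2 array at 30 min or 3 h and any of the 4 arrays at 1 h, with adjusted p up to 0.42.

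A response that differed between the times was called for 31 probe sets (0.205% of those tested), by a moderated F test in limma. The change was largest at 3 h for 25 of them, at 30 min for 4 and at 1 h for 2. A single gene is named by 8. Leaving out 1 array ended the call of each for 2 (BGLU28) to 10 (AT4G33420 and AT1G04930) of the 12 arrays, with adjusted p up to 0.39. BGLU28 (adjusted p = 0.0066), AT4G11190 (0.020), GSTU26 (0.030) and AT5G47980 (0.032) had their largest rise at 3 h, as described above. AT5G15750 (adjusted p = 0.027) had 3224 and 3104 in zeatin seedlings at 3 h, against 1652 and 1612 in mock seedlings. At 30 min AT5G15750 had 2121 and 1559 in zeatin seedlings, against 1972 and 1890 in mock seedlings. AT1G52930 (adjusted p = 0.025) had 3735 and 3341 in zeatin seedlings at 3 h, against 1856 and 2080 in mock seedlings, with overlap at 30 min. Both were thus separated from mock at 3 h and not at 30 min. AT4G33420 (adjusted p = 0.048) had its largest fall at 3 h. AT1G04930 (adjusted p = 0.046) had log2 changes of -0.13 at 30 min and -0.09 at 3 h, and was 4.29-fold higher at 1 h (limma adjusted p = 0.0008).

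Zeatin seedlings were also set against the mean of the 6 other hormones at the same times, a comparison that uses no mock array but shares the zeatin arrays with the one above. It called 1347 probe sets higher in zeatin (8.89% of those tested) and 1162 lower (7.67%), together 2509 (16.6%). With array medians subtracted in place of the trimmed-mean scaling, 1724 were higher and 863 lower. Because a mean of 6 hormones is used, a strong response to a single other hormone moves it. The risen cytokinin genes were also called here. ARR15 was higher in zeatin by 2.54 (limma adjusted p = 5.3e-11), ARR16 by 1.84 (adjusted p = 1.4e-13), UGT76C2 by 1.18 (adjusted p = 1.2e-12) and AZG1 by 0.77 (adjusted p = 9.7e-05).

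The changes under each hormone are given against the same mock arrays, which all of these comparisons share, and at different doses. ARR15 had a log2 change of 2.48 under zeatin and between -0.30 and 0.26 under the 6 others. ARR16 had 2.02 under zeatin and between -0.46 (MJ) and 0.71 (ACC) under the others. UGT76C2 had 1.11 under zeatin and between -0.42 and 0.19 under the others. AT2G25150, raised 4.28-fold by zeatin, had log2 changes of at most 0.46 under the others. These genes were therefore far above their values under the other hormones, whereas others were not. AT2G34610 had 1.91 under zeatin and 2.29 under ABA. CML23 had 1.05 under zeatin, 1.51 under ABA and positive values of 0.37 to 0.85 under the other 5, and its difference from the mean of the 6 did not pass (0.30, limma adjusted p = 0.21). GSTU26 had 0.86 under zeatin and 1.71 under MJ. BGLU28 had 0.74 under zeatin, 0.73 under MJ, 0.70 under GA3 and 0.70 under BL.

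Among the falls, UGT76B1 had -0.91 under zeatin and 1.23 under MJ. AT3G13760 had -1.53 under zeatin, -2.13 under ABA and -1.87 under MJ. DEWAX (AT5G61590) had -0.73 under zeatin and -2.48 under ABA, and its difference from the mean of the 6 did not pass (-0.19, limma adjusted p = 0.13). AT5G15180 had -0.94 under zeatin and 1.32 under ABA. GH3.3 had 0.13 under zeatin and 4.76 under IAA, and ZAT10 had -0.37 under zeatin and 2.33 under MJ, so these 2 genes were lower in zeatin than in the mean of the others (-0.99 and -1.25) without passing the test against mock.

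**Figure D4:**
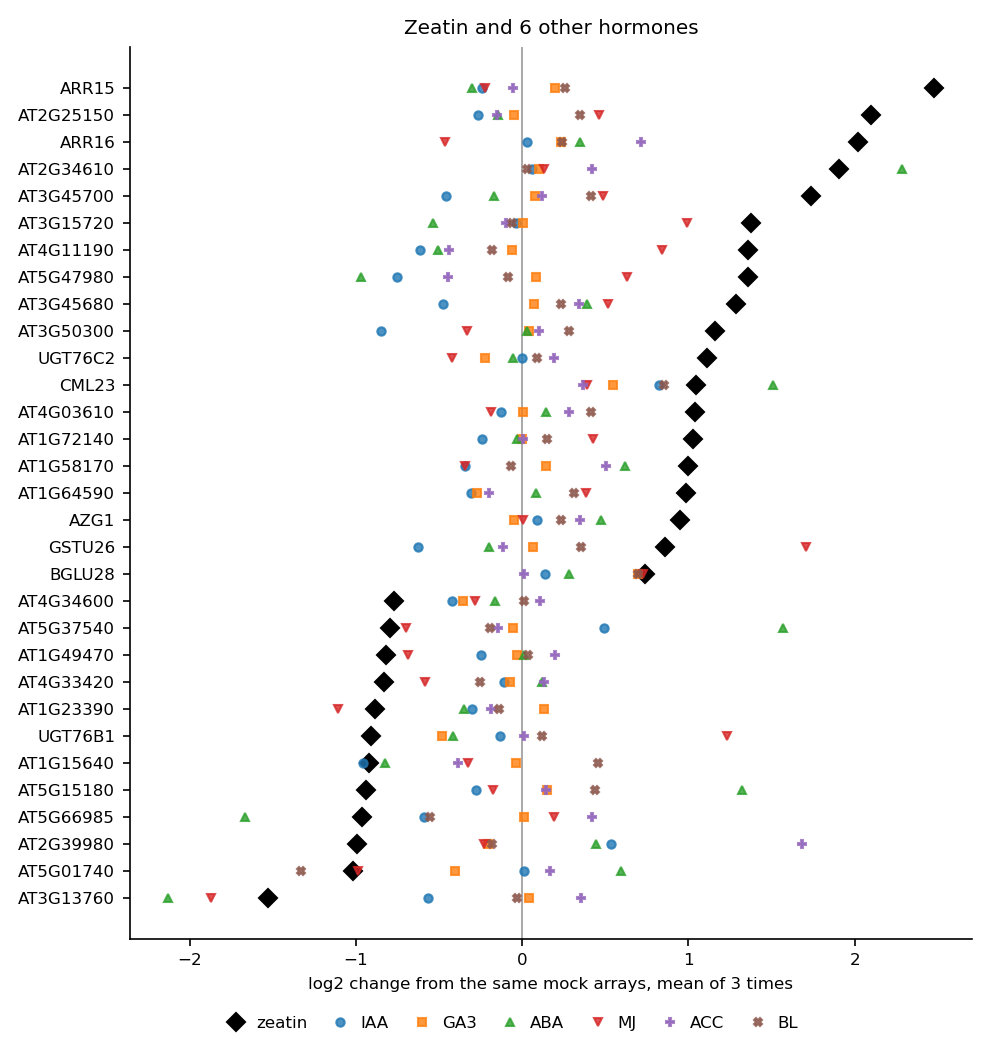
Log2 change from the shared mock arrays, mean of 3 times, under zeatin (black diamonds) and under IAA, GA3, ABA, MJ, ACC and BL (coloured points), for the 16 largest rises, the 12 largest falls and AZG1, GSTU26 and BGLU28. For ARR15 and ARR16 zeatin (2.48 and 2.02) stood apart from the other 6, while AT2G34610 was as high under ABA (2.29) as under zeatin (1.91).

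Of the 564 probe sets called over the time course, 51.1% do not name a single gene in the annotation used here, against 45.6% of all probe sets tested. This held for 12 of the 20 largest called rises and 9 of the 20 largest called falls. The largest rise of an unnamed probe set was 2.91 on the log2 scale and the largest fall was -1.55, which is outside the range of the named rises and near the largest named fall.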

How the data were processed

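The authors deposited MAS5 signal intensities, 1 per probe set and array, per the submitters' processing notes, which give no version in the sources used here. Their 2% trimmed means (2% cut at each end) were 887 on all replicate 2 arrays and 1056 to 1172 on replicate 1 arrays, and all arrays were brought to 1163. Same-numbered zeatin and mock arrays of a time shared theirs within 0.00025%, so the scaling is nearly the same within a pair and acts on its log2 difference through the constant added. On the deposited scale without it, 536 probe sets were called over the time course in place of 564, with 534 shared.

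One mean per treatment and time was fitted with limma 3.58.1 (R 4.3.3) over the 48 Col-0 arrays, with the replicate number within each time as a block (21 residual degrees of freedom), and eBayes with an intensity trend. The pairing comes from the replicate numbers in the labels. Deviations from the group means correlated at 0.402, 0.393 and 0.368 between same-numbered zeatin and mock arrays at 30 min, 1 h and 3 h. Tested probe sets exceeded the 40th percentile of an array on at least 2 of the 12 arrays. One IAA array (30 min, replicate 2) held impossible values, and after these were seen 1973 probe sets, 1270 of them tested, were set missing there. The fit was also run on data simulated from the same kind of model, which cannot show that the model suits these arrays. There, log2 changes of 0.5 were recovered for 60% of changed probe sets over the time course and 18 to 20% at single times.

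Gene names come from the platform annotation, with symbols updated through RefSeq (TAIR10.1) for 13436 probe sets. It names 1 gene for 13513 probe sets, several for 503 and none for 8794, controls included. Named are the 16 largest rises and 12 largest falls (called, 1 gene, all 6 pairs the same way), up to 4 rises and 4 falls at each time, the 6 smallest p for a difference between times, the cytokinin genes, and up to 4 members of each other list or family, of which some with small changes are left out. Called neighbours, AT1G11670, AT1G63840 and AT1G04930 were named after their values were seen. The members and lists were chosen with earlier results of these data known. The 23 lists hold 425 genes, 43 of them named by a tested probe set. Family members are only those whose symbol or synonym in the tables used here carries the family name. Family name patterns were corrected after the annotation was seen, and the 9 families with at least 4 tested members were kept. Alternatives tried were another scaling, pseudocount, filter, variance trend, choice of arrays and block, and leaving out each array.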

Additional observations from a re-analysis of the deposited data

Results flagged for a closer look

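The zeatin response differed between 30 min, 1 h and 3 h for 31 probe sets by the moderated F test of the difference itself, and 8 of them name a gene. The log2 change, zeatin minus mock, was higher at 3 h than at 30 min by 2.49 for BGLU28, 1.79 for AT4G11190, 1.34 for AT5G47980, 1.05 for GSTU26, 1.02 for AT5G15750 and 0.93 for AT1G52930. It differed by -1.01 for AT4G33420, whose fall was larger at 3 h. For AT1G04930 the difference between 3 h and 30 min was 0.037, and its change was largest at 1 h. Without the replicate block 3 probe sets were called.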

How the results depend on the processing

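Without the replicate block, calls were 201 over the time course (564 with it), 20 at 30 min (54), 50 at 1 h (193), 153 at 3 h (512), 3 for a difference between times (31) and 1347 against the other hormones (2509). All of these were also called with the block, which is the paired analysis reported. Without the variance trend, 9 probe sets were called for a difference between times. Under the other scalings, pseudocounts, filter and choices of arrays, each count stayed within 1.5 times its main value. Leaving out 1 array gave 359 to 541 calls over the time course, 19 to 55 at 30 min, 53 to 200 at 1 h, 163 to 587 at 3 h, 2 to 31 for a difference between times and 1522 to 2541 against the other hormones. The time-course count moved by over 1.5 times without the first mock array of 30 min (365), the first zeatin array of 30 min (370) or the second mock array of 1 h (359). At a single time the loss came from its own arrays, and for 3 h the count was 221 or 214 without the first or second mock array and 163 without the second zeatin array. Of 51 called named genes, 34 kept their call whichever array was left out, and 33 kept it without the block. No called named gene changed sign in any of the 22 alternatives.

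Genes near no change that were not called did change sign. ARL had -0.0026 with array medians subtracted. On leaving out 1 array the log2 change ran from -0.00038 to 0.18 for BGLU40, -0.039 to 0.10 for GRXC1, -0.050 to 0.11 for AT5G66390, -0.11 to 0.15 for GRX480, -0.036 to 0.073 for PORB, -0.10 to 0.12 for ARL, -0.13 to 0.11 for IAA18, -0.11 to 0.068 for EIN3, -0.088 to 0.024 for bHLH115, -0.23 to 0.17 for LHCB4.1, -0.18 to 0.096 for PYK10, -0.11 to 0.024 for AT5G64120, -0.21 to 0.12 for EXPA18, -0.17 to 0.058 for UGT76C1, -0.16 to 0.0069 for EXPA7, -0.24 to 0.076 for AT2G41480 and -0.36 to 0.091 for WRKY22. The number of arrays limits the precision, since each single time rests on 2 arrays against 2.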
